A study of Mus musculus with 16 samples.

Results

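The TNF receptor superfamily genes *Tnfrsf1a*, *Tnfrsf1b*, *Tnfrsf4*, *Tnfrsf9*, *Tnfrsf14*, *Tnfrsf18*, *Tnfrsf25*, *Tnfrsf26* and *Fas* were followed in group 2 innate lymphoid cells (ILC2s) of the mouse lung. The 9 genes were taken by name from a table of read counts for 51912 genes, in which each of them was found. The bulk mRNA-Seq libraries came from WT mice and from *Pac1-/-* mice, which lack the phosphatase PAC1 encoded by *Dusp2*, and both strains have the C57BL/6J background. Mice were 6 to 8 weeks old, and sorted lung ILC2s were expanded for 1 to 2 weeks in IL-2 and IL-7, and then stimulated for 4 hours without IL-2. The basal condition was IL-7 (100 ng/mL). The other 3 conditions held IL-7 together with IL-33 (100 ng/mL), with IL-33 and the neuropeptide CGRP (500 ng/mL), or with IL-33 and the neuropeptide NMU (500 ng/mL), and they are called IL-33, CGRP and NMU here. Every treatment of either genotype was represented by 2 libraries of about 500 sorted ILC2s, which gave 8 groups and 16 libraries. Nothing in the labels says that the 2 libraries of a group came from separate animals or cultures, so the p-values measure only the spread between these libraries, which may be technical.

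TNF receptors are cell surface proteins that bind trimeric ligands of the TNF superfamily. Members without a death domain recruit TRAF adaptors and feed NF-kB and MAP kinase signalling, while *Fas*, TNFR1 (*Tnfrsf1a*) and DR3 (*Tnfrsf25*) carry a death domain and can also engage caspase-8 and the RIP kinases. In lymphocytes OX40 (*Tnfrsf4*), 4-1BB (*Tnfrsf9*), GITR (*Tnfrsf18*) and DR3 act as costimulatory receptors, and DR3 with its ligand TL1A, GITR and OX40 with its ligand have been studied as activating inputs of ILC2s.

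Of the 9 genes, 6 lie on mouse chromosome 4 in the GRCm38 build with GENCODE M21 annotation. In order of position they are *Tnfrsf1b* (145213463 to 145246870, minus strand), *Tnfrsf9* (150914562 to 150946102, plus strand), *Tnfrsf25* (152115934 to 152120119, plus strand), *Tnfrsf14* (154921933 to 154928563, minus strand), *Tnfrsf4* (156013843 to 156016612, plus strand) and *Tnfrsf18* (156026164 to 156028895, plus strand). The end of *Tnfrsf4* and the start of *Tnfrsf18* are 9551 bases apart. *Tnfrsf1a* is on chromosome 6 (125349362 to 125362484, plus strand), *Tnfrsf26* on chromosome 7 (143607659 to 143628722, minus strand) and *Fas* on chromosome 19 (34290666 to 34327772, plus strand). Exons of *Tnfrsf18* overlap those of the antisense gene *Gm16008* (28 to 211 counts per library), and exons of *Tnfrsf26* overlap those of the antisense gene *E230032D23Rik* (0 to 150 counts). Reads of these pairs cannot be told apart if the counting ignored strand. In *Tnfrsf14*, stretches of up to 162 bases were at least 95% identical to transcripts of 40 other genes, whereas no stretch of 100 bases or more in the other 8 genes met this limit outside the antisense pairs.

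The regions before the start sites are printed for the genes with the highest levels, *Tnfrsf18* and *Tnfrsf9*, and for *Tnfrsf4*, the receptor called in a treatment comparison. Each runs 250 bases up to the RefSeq start on GRCm38.p6, 5′ to 3′ on the gene's strand, and for *Tnfrsf9*, which has a pair of listed starts, the downstream one is shown. Capitals mark matches on either strand to an NF-kB motif, to the AP-1 motif TGANTCA, to the GATA motifs AGATAA and TGATAA, or to the cAMP response element TGACGTCA and its core TGACG, which lies within it.
Tnfrsf18, chr4:156026072-156026321, plus strand: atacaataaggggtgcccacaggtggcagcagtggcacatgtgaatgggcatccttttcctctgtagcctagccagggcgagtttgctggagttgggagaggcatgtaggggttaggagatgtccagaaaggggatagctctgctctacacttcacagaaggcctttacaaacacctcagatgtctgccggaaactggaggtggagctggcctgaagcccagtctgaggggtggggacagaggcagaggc
Tnfrsf9, chr4:150927749-150927998, plus strand: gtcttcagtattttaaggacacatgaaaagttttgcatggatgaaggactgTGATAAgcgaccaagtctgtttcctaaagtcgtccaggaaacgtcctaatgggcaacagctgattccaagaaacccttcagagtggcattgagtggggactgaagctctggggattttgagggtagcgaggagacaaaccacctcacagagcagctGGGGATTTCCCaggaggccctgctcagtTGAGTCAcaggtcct
Tnfrsf4, chr4:156013445-156013694, plus strand: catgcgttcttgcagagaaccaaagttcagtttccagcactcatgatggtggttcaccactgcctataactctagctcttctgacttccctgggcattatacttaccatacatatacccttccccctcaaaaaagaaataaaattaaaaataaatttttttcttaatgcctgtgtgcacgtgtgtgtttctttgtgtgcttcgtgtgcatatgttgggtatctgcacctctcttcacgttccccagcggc
The printed *Tnfrsf9* region held the NF-kB motif from position -43, the AP-1 motif at -15 and the GATA motif TGATAA at -199, counted back from the start. The region before the upstream *Tnfrsf9* start, not printed, held none of the motifs searched. The *Tnfrsf18* and *Tnfrsf4* regions held none of these letters. RefSeq and GENCODE place some starts differently: the *Tnfrsf18* region runs past the GENCODE start (156026164). The *Tnfrsf9* region lies inside the GENCODE span of the gene (150914562 to 150946102). Among all 32851 regions of this length in the RefSeq table, 5.93% held the NF-kB motif, 6.75% the AP-1 motif, 9.99% AGATAA, 7.94% TGATAA, 1.55% TGACGTCA and 17.8% TGACG. A match is a description of letters and not evidence of binding.

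The libraries held 6764992 to 15963357 counts each, with a median of 11071278, and a floor of 3 counts equalled 0.171 to 0.462 counts per 1000000 (CPM, scaled with TMM factors). Of the 10 ILC2 markers examined, 9 had counts in every library and *Il17rb* had 0 counts in 3 libraries, with summed levels of 5512 to 7560 CPM, and the regulatory T cell factor *Foxp3* reached at most 1.06 CPM. Transcripts of other cell types were present at low levels. The 4 mast cell and basophil markers summed to 151 and 190 CPM in the WT CGRP libraries and to at most 84.2 CPM elsewhere. Of these 4 genes, 2 had 0 counts in both WT CGRP libraries, so the sum came from part of the set. The 3 endothelial markers summed to 60.0 and 92.0 CPM in the WT NMU libraries and to at most 52.2 CPM elsewhere. The 4 B cell markers summed to 271 and 281 CPM in the *Pac1-/-* CGRP libraries and to at most 78.1 CPM in the other libraries, and the 4 epithelial markers summed to 174 and 308 CPM in the WT NMU libraries and to at most 83.3 CPM elsewhere. The 7 T cell markers summed to 244 to 345 CPM in the IL-7 libraries and to 36.7 to 176 CPM in the others. In each genotype 2 of these 7 genes had 0 counts in both IL-7 libraries. The 7 macrophage and dendritic cell markers summed to 39.7 and 123 CPM in the WT NMU libraries and to at most 17.0 CPM elsewhere, and 4 of these 7 genes had 0 counts in both WT NMU libraries. *Dusp2* had 0 counts in all 8 *Pac1-/-* libraries, but also in 6 of 8 WT libraries, with a highest WT count of 57, and therefore checks the genotype labels only weakly.

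Per length, GITR and 4-1BB dominated the family. *Tnfrsf18* averaged 821 ± 192 CPM per kb of exon length (SD, n = 16 libraries) and *Tnfrsf9* 599.7 ± 243, and these 2 genes made up 89.7% of the summed per-kb level of the 28 superfamily genes examined. The TL1A receptor gene *Tnfrsf25* followed at 86.1 ± 26.7 CPM per kb. *Fas* (16.3 ± 9.46) and *Tnfrsf4* (15.9 ± 13.5) came next, ahead of *Tnfrsf1b*, which encodes TNFR2 (6.03 ± 2.39), and *Tnfrsf26*, a mouse receptor grouped with decoy TRAIL receptors (3.40 ± 2.55). The HVEM gene *Tnfrsf14* averaged 0.879 CPM per kb with 0 counts in 8 libraries, and *Tnfrsf1a* averaged 0.129 CPM per kb with 0 counts in 13 of 16 libraries. The lowest *Tnfrsf9* value lay above the highest of *Tnfrsf25*, and the lowest *Tnfrsf25* value above the highest of *Fas*. Other neighbours in the order overlapped: *Tnfrsf18* was above *Tnfrsf9* in 15 of 16 libraries, *Fas* above *Tnfrsf4* in 8, *Tnfrsf4* above *Tnfrsf1b* in 10, *Tnfrsf1b* above *Tnfrsf26* in 13, *Tnfrsf26* above *Tnfrsf14* in 14, and *Tnfrsf14* above *Tnfrsf1a* in 7.

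**Figure D1:**
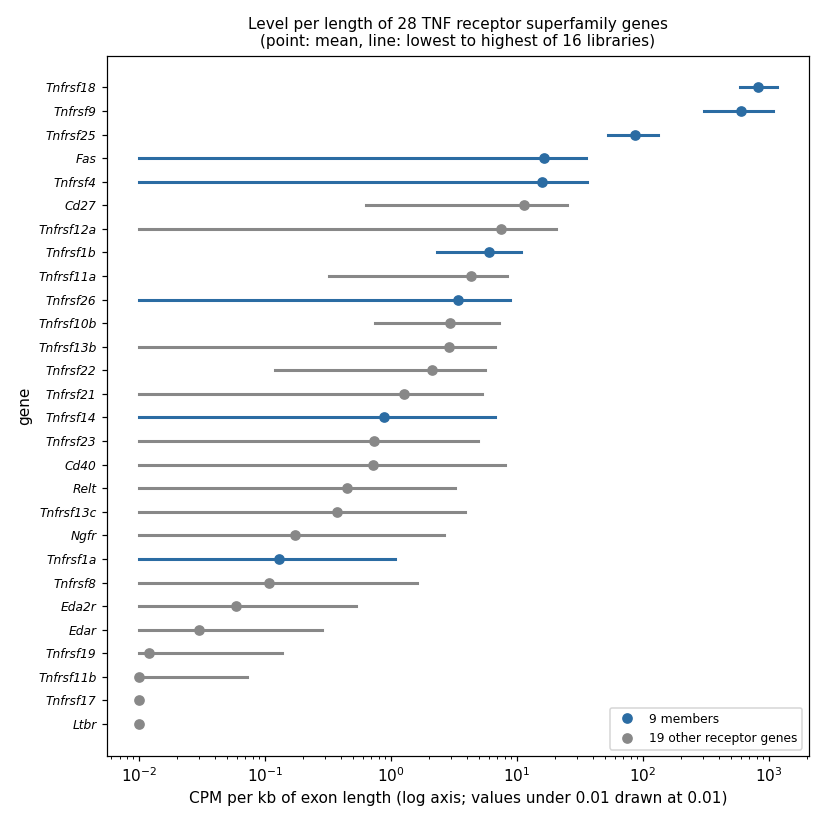
Level per length (CPM per kb of exon length, log axis) of 28 TNF receptor superfamily genes, with the mean as a point and the lowest to highest of 16 libraries as a line. The 9 receptors followed here are blue and 19 other receptor genes grey, values under 0.01 are drawn at 0.01, and *Tnfrsf18* (mean 821) and *Tnfrsf9* (mean 599.7) stand at the top, and *Tnfrsf1a* (mean 0.129) lies near the bottom.

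Among the 19 other receptor genes, *Cd27* had the highest level (11.3 ± 8.66 CPM per kb), followed by *Tnfrsf12a* (7.52 ± 6.65). *Tnfrsf17* and *Ltbr* had 0 counts in every library. The RANK gene *Tnfrsf11a* (4.29 ± 1.89 CPM per kb) was above 3 counts in all 16 libraries. *Tnfrsf22* and *Tnfrsf23*, the neighbours of *Tnfrsf26* in the same receptor group, averaged 2.14 ± 1.55 and 0.734 ± 1.28 CPM per kb.

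Whether IL-33 changed the receptors was asked by comparing the IL-33 with the IL-7 libraries, averaging the genotypes equally. A gene was called when its fold change exceeded 1.5 and its Benjamini-Hochberg adjusted p in edgeR's quasi-likelihood test over all 14979 genes tested was under 0.05. None of the 9 receptors was called, against 0.0334% of all genes tested. At an unadjusted edgeR p under 0.05 there were 2 receptors, *Tnfrsf9* and *Tnfrsf14*, against 9.88% of all genes. DESeq2 called 0 of the 9, against 1.98% of all genes. In every receptor the IL-33 and IL-7 libraries overlapped, whereas 5.24% of the genes tested did not overlap. With CPM on total counts, *Tnfrsf9* did not overlap (1395 to 3339 against 1107 to 1362 CPM). The median log2 fold change of the 9 receptors was 0.28 and that of all genes tested 0.08.

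*Tnfrsf9*, which encodes 4-1BB and is known as an activation-induced receptor, had 1263 and 1135 CPM in WT and 1160 and 1383 CPM in *Pac1-/-* libraries with IL-7. With IL-33 it had 2847 and 1644 CPM in WT and 2941 and 1099 CPM in *Pac1-/-* libraries. Of the 4 IL-33 libraries, 3 lay above every IL-7 library and 1 *Pac1-/-* library lay below all of them. The log2 difference was 0.79 (SE 0.30, edgeR's quasi-likelihood test, Benjamini-Hochberg adjusted p = 0.437). Without that *Pac1-/-* IL-33 library (replicate 2) the difference was 1.03. With all libraries and no filter on low counts the difference was called (edgeR adjusted p = 0.00144). Fits that left out 1 library kept 1 library in a group and tested 18213 to 18846 genes. Their calls therefore do not check stability.

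*Tnfrsf25*, the receptor for TL1A, had 228 and 126 CPM in WT and 171 and 130 CPM in *Pac1-/-* libraries with IL-7. With IL-33 it had 256 and 243 CPM in WT and 301 and 153 CPM in *Pac1-/-* libraries, and the sets overlapped (log2 difference 0.55, SE 0.27, edgeR adjusted p = 0.533). *Tnfrsf18* had 1188 to 1511 CPM with IL-7 and 1018 to 1758 CPM with IL-33, a log2 difference of 0.14 (95% interval -0.23 to 0.52). The differences of *Tnfrsf1b*, *Tnfrsf4*, *Tnfrsf26* and *Fas* ranged from -0.02 to 0.28 with standard errors of 0.47 to 1.05, and even the narrowest of their 95% intervals, that of *Tnfrsf1b*, ran from -1.02 to 0.99. *Tnfrsf14* had 0 counts in all 4 IL-7 libraries and 6, 0, 102 and 0 counts in the IL-33 libraries, where 1 library supplied nearly all reads.

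**Figure D2:**
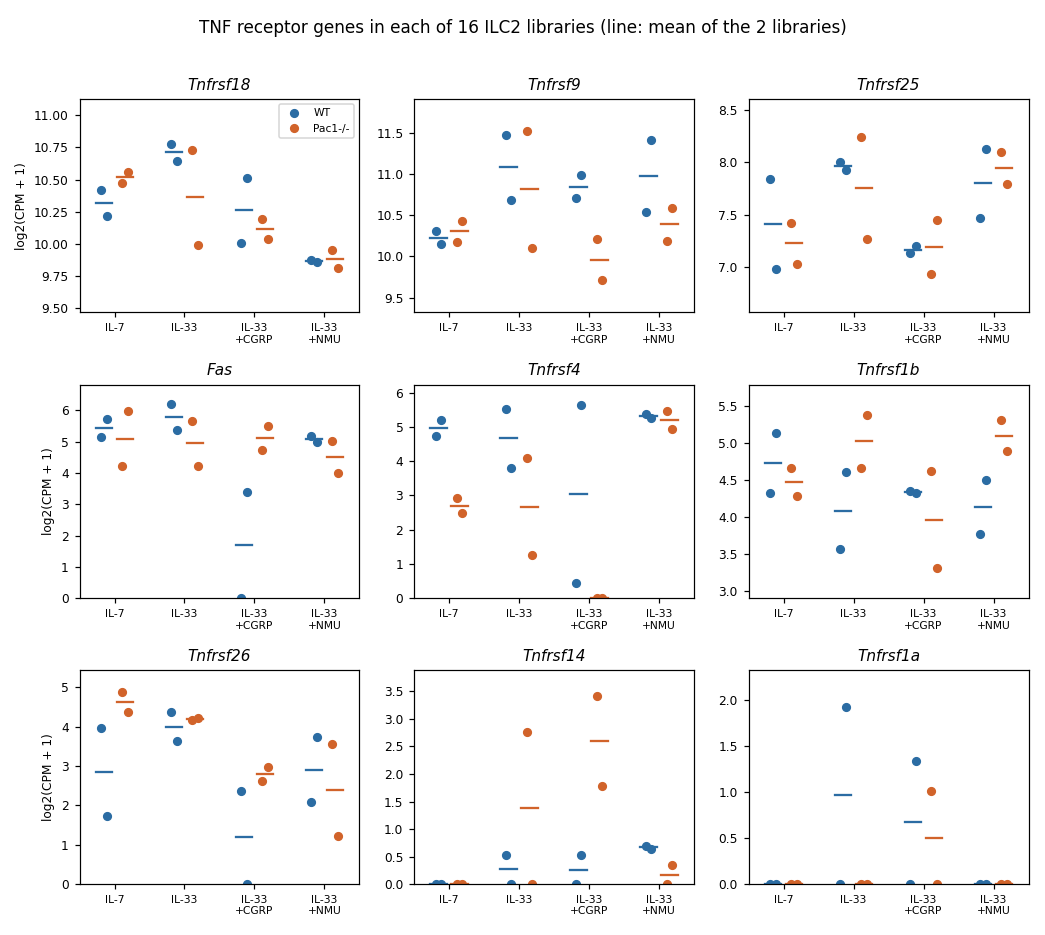
Level of the 9 receptor genes, as log2(CPM + 1), in each of 16 libraries by treatment, where blue points are WT, orange points *Pac1-/-* and lines the mean of the 2 log values, and the y axis differs between panels and does not start at 0 in *Tnfrsf18*, *Tnfrsf9*, *Tnfrsf25* and *Tnfrsf1b*. *Tnfrsf18* with NMU stays within 899 to 991 CPM, and *Tnfrsf4* with CGRP spans 0 to 49.1 CPM.

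CGRP, which is known to restrain ILC2s, was compared with IL-33 alone. No receptor was called by edgeR, against 2.76% of all genes tested. At an unadjusted edgeR p under 0.05 there were 3 (*Tnfrsf4*, *Tnfrsf9* and *Tnfrsf25*), against 16.7% of all genes. DESeq2 called 1 of 9, *Tnfrsf4*, against 8.7% of all genes. The CGRP libraries lay below the IL-33 libraries without overlap in 1 receptor, *Tnfrsf26*, against 9.71% of genes that did not overlap in either direction. The median log2 fold change of the receptors was -0.64, beside -0.09 over all genes tested.

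*Tnfrsf9* had 1667 and 2031 CPM in WT and 1185 and 838 CPM in *Pac1-/-* CGRP libraries, against the 1099 to 2941 CPM of the IL-33 libraries. Its difference was -0.64 (SE 0.30, edgeR adjusted p = 0.299), and -0.89 without the *Pac1-/-* IL-33 replicate 2. With all libraries and no filter on low counts the difference was called (edgeR adjusted p = 0.0058). *Tnfrsf25* had 139 and 146 CPM in WT and 121 and 174 CPM in *Pac1-/-* libraries, a difference of -0.71 (SE 0.27, edgeR adjusted p = 0.205). *Tnfrsf18* had 1029 and 1459 CPM in WT and 1172 and 1048 CPM in *Pac1-/-* libraries, a difference of -0.36 (SE 0.18, edgeR adjusted p = 0.316). In all 3 genes the sets overlapped, although with CPM on total counts those of *Tnfrsf25* did not (117 to 162 against 194 to 342 CPM). In *Tnfrsf18* and *Tnfrsf25* the overlap came from the low *Pac1-/-* IL-33 replicate 2, whereas in *Tnfrsf9* both WT CGRP libraries also lay above WT IL-33 replicate 2 (1644 CPM).

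*Tnfrsf26* had 4.19 and 0 CPM in WT and 5.18 and 6.85 CPM in *Pac1-/-* CGRP libraries, all below the 11.4 to 19.8 CPM of the IL-33 libraries. The log2 difference was -2.20 (SE 1.10, edgeR adjusted p = 0.333). No fit with 2 libraries in each group called it. Without WT CGRP replicate 1 the remaining WT CGRP library had 0 counts, and no fold is given. Reads of the antisense gene that shares its exons may be included. *Fas*, the receptor that starts the extrinsic death pathway, had 0 and 9.54 CPM in WT and 25.9 and 44.3 CPM in *Pac1-/-* CGRP libraries. Its difference to IL-33 was -1.76 (SE 0.89, edgeR adjusted p = 0.342), from the WT libraries: the WT IL-33 values were 73.0 and 40.0 CPM, while the *Pac1-/-* values of 49.5 and 17.9 CPM overlapped those with CGRP. With no filter on low counts the difference was called (edgeR adjusted p = 0.0255). Without WT CGRP replicate 2 the remaining WT CGRP library had 0 counts of *Fas*, and no fold is given.

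NMU, which is known to activate ILC2s, was compared with IL-33 in the same way. No receptor was called by edgeR, against 0.187% of genes tested. At an unadjusted edgeR p under 0.05 there was 1 receptor, *Tnfrsf18*, against 6.5% of genes tested. DESeq2 called that receptor alone, against 1.47% of all genes. *Tnfrsf18* was also the 1 receptor whose sets did not overlap, against 4.35% of genes tested. The median log2 fold change was -0.66 for the receptors and -0.08 for all genes tested.

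*Tnfrsf18*, the GITR gene, had 937 and 927 CPM in WT and 991 and 899 CPM in *Pac1-/-* NMU libraries. The IL-33 libraries had 1758 and 1602 CPM in WT and 1702 and 1018 CPM in *Pac1-/-*. All 4 NMU libraries lay below the IL-33 libraries, and also below all IL-7 libraries (1367 and 1188 CPM in WT, 1418 and 1511 CPM in *Pac1-/-*) and all CGRP libraries. With CPM on total counts NMU (890 to 1063 CPM) still lay below IL-33 and IL-7 but overlapped CGRP (935 to 1364 CPM). The NMU mean was 938 ± 38.4 CPM and the IL-33 mean 1520 ± 341 CPM (SD, n = 4 libraries each), a log2 difference of -0.69 (SE 0.18, 95% interval -1.07 to -0.31). The unadjusted p was 0.00177 and the adjusted p 0.232 by edgeR's quasi-likelihood test. The adjusted p was 0.00521 with DESeq2 and 0.0221 with edgeR and no filter on low counts, and over all alternatives it ranged from 0.00521 to 1. Without *Pac1-/-* IL-33 replicate 2 the log2 difference was -0.85. The difference to IL-33 was -0.85 in the WT libraries, where NMU came with the epithelial, endothelial and macrophage transcripts. It was -0.53 in the *Pac1-/-* libraries, where the epithelial markers summed to 35.5 and 54.1 CPM with NMU.

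The other receptors with NMU overlapped their IL-33 values. *Tnfrsf9* had 1492 and 2729 CPM in WT and 1169 and 1534 CPM in *Pac1-/-* NMU libraries, a difference of -0.33 (SE 0.30). *Tnfrsf25* had 176 and 279 CPM in WT and 273 and 220 CPM in *Pac1-/-* libraries, and its difference of -0.01 had a 95% interval of -0.59 to 0.57. *Tnfrsf4* was at 40.3 and 36.9 CPM in WT and 43.2 and 29.6 CPM in *Pac1-/-* libraries, the narrowest set of any treatment for this gene, with a mean of 37.5 ± 5.86 CPM (SD, n = 4) against 18.9 ± 18.7 CPM with IL-33. The difference of 1.24 (SE 1.01) in *Tnfrsf4* was not called (edgeR adjusted p = 0.945).

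**Figure D3:**
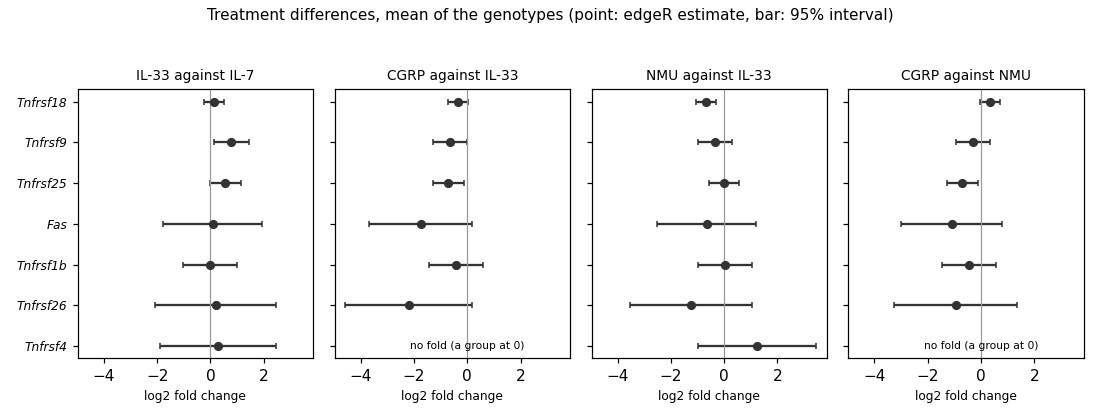
Log2 fold change (x axis) of 7 receptor genes in 4 treatment comparisons, averaged over the genotypes, with 95% intervals as bars. *Tnfrsf4* has no fold where a group was at 0, and *Tnfrsf14* and *Tnfrsf1a* are left out because most libraries were at or near 0, and the intervals are narrowest for *Tnfrsf18*, whose NMU against IL-33 value is -0.69, and widest for *Fas*, *Tnfrsf26* and *Tnfrsf4*.

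Set against each other, CGRP and NMU differed in 1 receptor by edgeR, *Tnfrsf4*, against 5.47% of genes tested. DESeq2 called the same single receptor, against 12.6% of all genes. An unadjusted edgeR p under 0.05 was met by *Tnfrsf4* and *Tnfrsf25*, against 20.3% of genes tested. The sets did not overlap in 2 receptors, against 13.3% of genes tested: *Tnfrsf18* was higher with CGRP and *Tnfrsf25* lower. The median log2 fold change was -0.44 for the receptors and 0.02 for all genes tested.

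*Tnfrsf4*, the OX40 gene, had 0 counts in both *Pac1-/-* CGRP libraries, 4 counts (0.356 CPM) in the first WT CGRP library and 448 counts (49.1 CPM) in the second. The last of these lay above every NMU library, so the sets overlapped. The Benjamini-Hochberg adjusted p was 0.0367 by edgeR's quasi-likelihood test and 5.2e-05 by DESeq2. In the *Pac1-/-* libraries the NMU mean of 36.4 CPM was at least 105.2-fold above the floor of 3 counts per library (0.346 CPM). In the WT libraries alone the log2 difference was -0.64 (SE 1.42, adjusted p = 0.912). The call was lost with only the 8 libraries of these treatments (edgeR adjusted p = 0.0985) and with the replicate number as a block (0.0521). It was also lost with the contrast of the *Pac1-/-* libraries alone (0.053). Fits leaving out 1 library kept 1 library in a group and passed more genes through the filter, so they do not check the call. Over all alternatives the adjusted p ran from 2.93e-08 to 0.912. Against IL-33 alone the adjusted p of *Tnfrsf4* was 0.125 by edgeR and 0.00361 by DESeq2.

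The *Pac1-/-* CGRP libraries, where *Tnfrsf4* was at 0, held 15570 and 15655 genes with at least 1 count, in a range of 12776 to 16211 over all libraries. Their totals were 8333920 and 10219815 counts, in a range of 6764992 to 15963357. The source of the zeros was not tested. Of 4853 genes averaging 20 CPM or more over the other 14 libraries, 8 (0.165%) had 0 counts in both, and *Tnfrsf4* was among them. In the other 7 groups that share was 0.0615% to 0.164%. The 2 libraries of a group correlated least with CGRP (r of log2 CPM 0.781 in *Pac1-/-* and 0.793 in WT). With the other treatments this r was 0.838 to 0.892. The B cell markers were raised in both *Pac1-/-* CGRP libraries, and their part in the result was not tested. Fewer cells with the transcript and less transcript per cell cannot be told apart in bulk libraries.

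*Tnfrsf25* was lower with CGRP than with NMU without overlap, at 121 to 174 against 176 to 279 CPM (log2 difference -0.71, SE 0.27, edgeR adjusted p = 0.164). *Tnfrsf18* was higher with CGRP without overlap, at 1029 to 1459 against 899 to 991 CPM (0.32, SE 0.18, edgeR adjusted p = 0.32), a separation that was lost with CPM on total counts. Neither passed the test. In *Tnfrsf9* (-0.30, SE 0.30), *Fas* (-1.10, SE 0.88), *Tnfrsf1b* (-0.44, SE 0.47) and *Tnfrsf26* (-0.95, SE 1.07) the sets overlapped.

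The genes most like *Tnfrsf4* over the 16 libraries, among 4871 named genes averaging 20 CPM or more, were *Med27* (Pearson r = 0.911 of log2 CPM), *Rnmt* (0.886) and *Fbxo6* (0.846). The libraries at or near 0 for *Tnfrsf4* carry much of such a correlation.

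Whether loss of PAC1 changed the receptors was asked over all treatments and within each. Over all treatments no receptor was called by edgeR, against 0.113% of genes tested. At an unadjusted edgeR p under 0.05 there was 1 (*Tnfrsf4*), against 6.77% of genes tested. DESeq2 called *Tnfrsf4*, against 0.895% of all genes. The 8 *Pac1-/-* and the 8 WT libraries overlapped in every receptor (0.1% of genes tested did not overlap). For *Tnfrsf4* the edgeR adjusted p was 0.355, and without the 4 CGRP libraries the log2 difference was -1.43 (SE 0.83, adjusted p = 1). Among fits leaving out 1 library the *Tnfrsf4* difference was smallest without WT CGRP replicate 2, which held nearly all its reads with CGRP. The abundant receptors had narrow intervals around 0: the log2 difference was -0.06 in *Tnfrsf18* (95% interval -0.33 to 0.20) and -0.05 in *Tnfrsf25* (-0.46 to 0.36). *Tnfrsf9* was at -0.40 (-0.85 to 0.06, edgeR adjusted p = 0.787).

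With IL-7 no receptor was called by edgeR (0.00668% of genes tested) or by DESeq2 (0.421%). None had an unadjusted edgeR p under 0.05 (4.45% of genes tested). With 2 libraries a side, 3 receptors did not overlap between the genotypes, against 28.8% of all genes tested. *Tnfrsf4* was lower in *Pac1-/-* (6.54 and 4.60 CPM) than in WT (25.3 and 36.0 CPM), a log2 difference of -2.46 (SE 1.496, edgeR adjusted p = 0.891). *Tnfrsf26* (28.6 and 19.8 against 14.6 and 2.29 CPM) and *Tnfrsf18* were higher in *Pac1-/-* libraries, by 1.52 (SE 1.51) and 0.20 (SE 0.25).

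With IL-33 no receptor was called by edgeR (0.00668%) or by DESeq2 (0.254%), and none had an unadjusted edgeR p under 0.05 (3.69%). The genotypes did not overlap in 1 receptor, against 32.2% of all genes. This was *Tnfrsf1b*, at 24.5 and 40.9 CPM in *Pac1-/-* and 10.9 and 23.3 CPM in WT libraries (0.93, SE 0.67). *Tnfrsf4* was at 15.999 and 1.39 CPM in *Pac1-/-* and at 45.3 and 12.8 CPM in WT libraries (-1.74, SE 1.46), which overlapped.

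With CGRP no receptor was called by edgeR (0.107% of genes), and DESeq2 called *Tnfrsf4*, against 2.62% of all genes. An unadjusted edgeR p under 0.05 was found in 2 receptors (*Tnfrsf4* and *Fas*), against 7.8% of all genes. The genotypes did not overlap in 5 receptors, against 33.2% of genes tested. *Tnfrsf4* was at 0 in both *Pac1-/-* libraries and at 0.356 and 49.1 CPM in WT. The WT mean was at least 71.5-fold above the floor, but 1 WT library supplied nearly all of it. The edgeR adjusted p was 0.251, or 6.44e-08 with no filter on low counts, and DESeq2 gave 6.46e-05. Without the WT library at 49.1 CPM only that at 0.356 CPM remained. *Fas* was higher in *Pac1-/-* (25.9 and 44.3 CPM) than in WT libraries (0 and 9.54 CPM), a log2 difference of 2.89 (SE 1.32, 95% interval 0.03 to 5.74, edgeR adjusted p = 0.634). It was called with no filter on low counts (edgeR adjusted p = 0.0391). Leaving out WT CGRP replicate 2 left a WT library at 0, so no fold is given for that fit. *Tnfrsf9* was lower (1185 and 838 against 1667 and 2031 CPM, -0.87, SE 0.42, edgeR adjusted p = 0.643, and 0.0423 with no filter). *Tnfrsf26* was higher by 1.51 (SE 1.53), and *Tnfrsf14* had 95 and 19 counts in *Pac1-/-* but 0 and 4 in WT libraries. The same *Pac1-/-* libraries held the raised B cell markers, and *Fas* and *Tnfrsf14* are also expressed in B cells. The WT CGRP libraries held the raised sum of mast cell and basophil markers, which came from part of that set. The part of such cells in these differences was not tested.

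With NMU no receptor was called by edgeR (0.02%) or DESeq2 (0.314%), and none had an unadjusted edgeR p under 0.05 (3.29%). The genotypes did not overlap in 2 receptors, against 30.2% of genes tested. These were *Tnfrsf1b*, at 38.6 and 28.6 CPM in *Pac1-/-* and 12.6 and 21.7 CPM in WT libraries (0.97, SE 0.67), and *Tnfrsf14*, with 0 and 3 against 4 and 5 counts. With CPM on total counts *Fas* did not overlap either, and was lower in *Pac1-/-* (15.2 to 28.2 CPM) than in WT libraries (33.9 to 34.9 CPM). *Tnfrsf4* did not separate (-0.08, SE 1.41), and *Tnfrsf18* differed by 0.02 (95% interval -0.51 to 0.55).

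**Figure D4:**
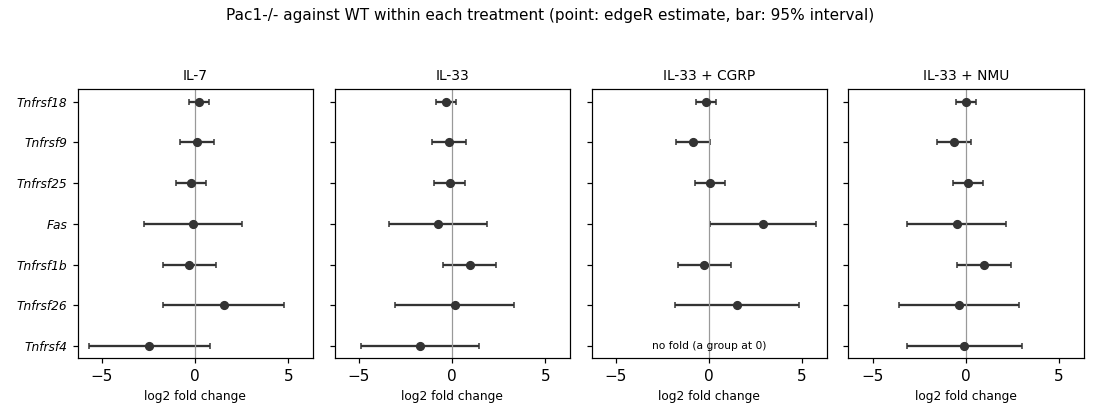
Log2 fold change (x axis) of *Pac1-/-* against WT within each treatment for 7 receptor genes, with 95% intervals as bars (2 libraries per group). *Tnfrsf4* with CGRP has no fold because the *Pac1-/-* group was at 0, and the interval covers 0 in every comparison drawn except *Fas* with CGRP (0.03 to 5.74), which was not called after adjustment.

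Whether the genotypes differed in their responses was tested directly as an interaction. edgeR called 0 receptors and 0% of all genes in each of the 3 interactions (IL-33 against IL-7, and CGRP or NMU against IL-33). At an unadjusted p under 0.05 there were 0, 1 and 0 receptors and 726, 905 and 813 genes. DESeq2 called 0, 1 and 0 receptors, against 0.134%, 0.875% and 0.187% of genes tested. The receptor was *Tnfrsf4* with CGRP (edgeR adjusted p = 0.807, DESeq2 adjusted p = 0.0406, range over alternatives 0.00129 to 0.899). For *Fas* the interaction with CGRP was 3.63 (SE 1.79, edgeR adjusted p = 0.807). No fit with 2 libraries in each group called the *Fas* interaction.

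The ligands of these receptors were measured in the same libraries, from a list of 18 ligand genes of which 15 were tested. In the 12 comparisons edgeR called 1 ligand, the RANKL gene *Tnfsf11*, with CGRP against IL-33 and against NMU, where 2.76% and 5.47% of all genes were called. Over the 12 comparisons 17 of 180 tests (9.44%) had an unadjusted p under 0.05, against 7.97% over all genes, and DESeq2 made 6 calls (3.33%, against 2.54%). The comparisons reuse the same libraries, so these tests are not independent and such pooled shares are descriptions only. The median log2 fold change of the ligands with CGRP against IL-33 and against NMU was -0.02 and -0.72, beside -0.09 and 0.02 over all genes tested. The OX40 ligand gene *Tnfsf4* had 106 to 198 CPM with IL-33, 44.1 to 64.8 CPM with NMU and 6.69 to 108 CPM with CGRP. Its CGRP difference to IL-33 was -2.37 (SE 0.62, edgeR adjusted p = 0.0619) and its NMU difference -1.46 (SE 0.60, adjusted p = 0.711), and the NMU libraries did not overlap those with IL-33. The 4-1BB ligand gene *Tnfsf9* had 4.89 to 22.9 CPM with IL-33 and 18.0 to 50.1 CPM with CGRP (1.64, SE 1.21). *Tnfsf14*, which encodes the HVEM ligand LIGHT, had 22.8 to 53.2 CPM with IL-33 and 6.32 to 76.2 CPM with CGRP. With CGRP it was higher in *Pac1-/-* libraries by 2.35 (SE 0.59, edgeR adjusted p = 0.276, DESeq2 called it).

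*Tnf* had 0 to 4.13 CPM with IL-7 and 3.05 to 35.3 CPM with IL-33 (2.31, SE 1.06, edgeR adjusted p = 0.502). The high values were those of the *Pac1-/-* IL-33 libraries (35.3 and 14.9 CPM). The WT libraries overlapped, at 2.47 and 4.13 CPM with IL-7 and 3.05 and 4.31 CPM with IL-33. *Lta*, whose product also binds both TNF receptors, had 18.1 to 46.6 CPM with IL-33 and 5.34 to 34.0 CPM with CGRP (-1.27, SE 0.54, adjusted p = 0.258). The GITR ligand gene *Tnfsf18* reached at most 8.22 CPM, *Fasl* at most 12.4 CPM, and the TL1A gene *Tnfsf15* was seen above 1 CPM in 1 library (8.81 CPM).

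The other receptor genes gave no edgeR call in any of the 12 comparisons among the 11 of 19 that were tested. Of these 132 tests, which reuse the same libraries and are not independent, 15 (11.4%) had an unadjusted p under 0.05, against 7.97% over all genes. DESeq2 made 3 calls (2.27%, against 2.54%). *Cd27*, a costimulatory receptor, had 3.02 to 15.9 CPM with IL-33, 39.5 to 57.9 CPM with CGRP and 31.1 to 57.6 CPM with NMU. Neither neuropeptide set of *Cd27* overlapped that of IL-33, with differences of 2.19 (SE 0.60, edgeR adjusted p = 0.0777) and 1.90 (SE 0.60, adjusted p = 0.447), and DESeq2 called both. *Cd27* is also expressed in B and T cells, and their part in its level was not tested.

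Adaptors and signalling genes that act below the receptors gave edgeR calls with CGRP against IL-33 and against NMU and in none of the other 10 comparisons, with 28 of 29 tested. Over the 12 comparisons 46 of 336 tests (13.7%) had an unadjusted p under 0.05, against 7.97% over all genes, and DESeq2 made 19 calls (5.65%, against 2.54%). The comparisons reuse the same libraries, so these tests are not independent and the shares do not test an enrichment of the list. With CGRP against IL-33, 1 rose and 2 fell, beside 1.65% and 1.11% of all genes, and with CGRP against NMU, 1 rose and 3 fell, beside 2.63% and 2.84%. The median log2 fold change of the list was -0.42 and -0.13, beside -0.09 and 0.02 over all genes tested. *Tnfaip3*, which encodes the deubiquitinase A20 and restrains NF-kB signalling, had 568 to 776 CPM with CGRP against 278 to 457 CPM with IL-33 and 173 to 250 CPM with NMU. It rose by 1.12 (SE 0.19, edgeR adjusted p = 0.0073) against IL-33 and by 1.74 (SE 0.19, adjusted p = 0.000248) against NMU, with no overlap in either. *Tnfsf11* had 57.3 to 116 CPM with CGRP, 9.91 to 30.4 CPM with IL-33 and 10.3 to 22.7 CPM with NMU, and rose by 2.19 (SE 0.47, edgeR adjusted p = 0.0266) and 2.29 (SE 0.47, adjusted p = 0.0136).

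The genes called lower, averaged over the genotypes, were *Casp8*, *Mlkl*, *Ripk3* and *Ikbkg*. *Casp8*, the initiator caspase of death receptors, had 138 to 231 CPM with CGRP and 307 to 447 CPM with NMU (-0.95, SE 0.25, edgeR adjusted p = 0.0462). *Mlkl*, the executor of necroptosis, had 12.3 to 58.0 CPM with CGRP and 71.4 to 133 CPM with IL-33 (-1.97, SE 0.37, adjusted p = 0.0131), with no overlap. Its upstream kinase *Ripk3* had 0.102 to 19.2 CPM with CGRP and 17.0 to 59.2 CPM with NMU (-3.08, SE 0.75, adjusted p = 0.0298), and the sets overlapped. The low *Ripk3* values were those of the *Pac1-/-* CGRP libraries (1 and 11 counts), which also held the raised B cell markers, while the WT CGRP libraries had 216 and 173 counts. The part of such cells was not tested. *Ikbkg*, the IKK regulatory subunit NEMO, had 0 counts in both *Pac1-/-* CGRP libraries and up to 19.1 CPM in the WT ones, and was called against IL-33 (edgeR adjusted p = 0.00974) and against NMU (0.012). As with *Tnfrsf4*, these calls of *Ikbkg* involve a group at 0, in which the *Pac1-/-* IL-33 mean of 22.9 CPM was at least 66.2-fold above the floor. In the WT libraries the *Ikbkg* mean was 15.1 CPM with CGRP, 22.4 CPM with IL-33 and 13.6 CPM with NMU. The fall of *Ikbkg* against NMU therefore came from the *Pac1-/-* libraries alone. Those with CGRP held the raised B cell markers, and the part of such cells in the *Ikbkg* calls was not tested.

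**Figure D5:**
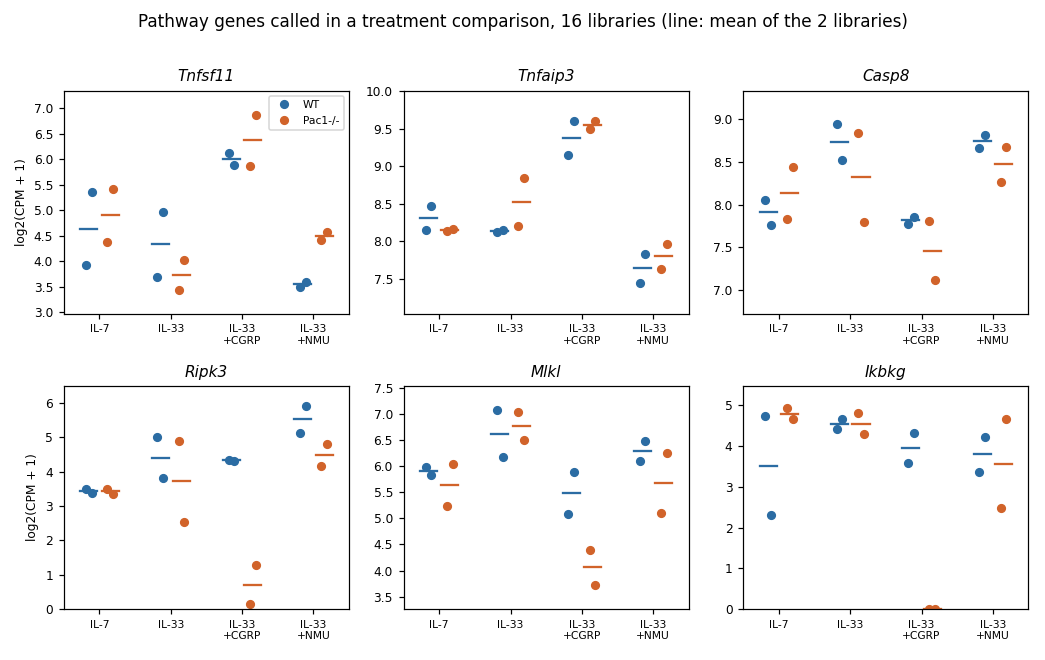
Level, as log2(CPM + 1), of the 6 ligand or signalling genes called in a treatment comparison, in each of 16 libraries by treatment, where blue points are WT, orange points *Pac1-/-* and lines the mean of the 2 log values (y axes differ between panels). *Tnfaip3* (568 to 776 CPM) and *Tnfsf11* (57.3 to 116 CPM) are highest with CGRP, whereas *Ikbkg* is at 0 in both *Pac1-/-* CGRP libraries.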

How the data were processed

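Bulk mRNA-Seq of 16 ILC2 libraries was analysed. The authors reverse transcribed and amplified full-length cDNA, sequenced paired-end reads, aligned them to mm10 with HISAT2 and deposited raw read counts per Ensembl gene. The counting tool, annotation and use of strand are not given in the sources used here. No molecular identifiers are described, so floors of 3 counts cover counting error only. Groups came from the sample labels. The 9 receptors and all gene lists were chosen with earlier results of these data known.

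Counts were analysed in R 4.3.3 with edgeR 4.0.16 (TMM, filterByExpr by group, quasi-likelihood test, 8 group means over 16 libraries, Benjamini-Hochberg adjustment over 14979 genes). A call needed a fold change above 1.5 and an adjusted p under 0.05. Levels are TMM-scaled CPM, and 95% intervals use the test's own degrees of freedom. All 9 receptors were named, their 8 ligand genes and 2 relatives of *Tnfrsf26*, and other listed genes where called; *Cd27*, *Tnfrsf12a*, *Tnfrsf11a*, *Tnfrsf17* and *Ltbr* were named after their values were seen. Likeness was searched only for receptors called in a treatment comparison. Alternatives were DESeq2 1.42.0, RLE size factors, other filters, no fold cutoff, the replicate block, the compared libraries only, a single genotype, and leaving out each library. The script was tested on simulated data. Contrasts within a genotype or without CGRP were added after seeing the data. BLAST 2.17.0 against GENCODE M21 transcripts (95% identity over 100 bases) gave near-identical genes, and gene regions before start sites came from RefSeq (GRCm38.p6), which listed 8 of the 9 receptors.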

Additional observations from a re-analysis of the deposited data

Results flagged for a closer look

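Among the 4 libraries of each treatment, taken over both genotypes, a library was singled out where its gap to the nearest other library, divided by the whole range, exceeded Dixon's 95% critical value. For normally distributed values chance singles out about 1 in 20 such sets, and 33 sets were examined. That rate does not hold for CPM with many zeros, where a lone library above 0 is always singled out. With CGRP, *Tnfrsf4* was at 49.1 CPM (448 counts) in WT replicate 2, while the other 3 CGRP libraries had 0 to 0.356 CPM. With IL-33, *Tnfrsf14* was at 5.81 CPM (102 counts) in *Pac1-/-* replicate 1, with 0 to 0.446 CPM in the other 3 libraries. With IL-33, *Tnfrsf1a* was at 2.80 CPM (28 counts) in WT replicate 2 and at 0 in the others.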

How the results depend on the processing

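The count of receptors called moved under several alternatives. IL-33 against IL-7 went from 0 to 1 with no filter (0 to 1 over fits leaving out 1 library). CGRP against IL-33 went from 0 to 1 with DESeq2 and 3 with no filter (0 to 2 leaving out 1 library), and NMU against IL-33 from 0 to 1 with DESeq2 and 1 with no filter (0 to 1). CGRP against NMU went from 1 to 0 with a minimum of 10 counts in every library, where *Tnfrsf4* was not tested, to 0 with the replicate block (adjusted p = 0.0521), to 0 with the compared libraries only, and to 0 in WT or in *Pac1-/-* libraries alone (1 to 2 leaving out 1 library). KO against WT over all treatments, with CGRP, and the genotype by CGRP interaction went from 0 to 1 with DESeq2, and with no filter to 1, 3 and 1 (each 0 to 1 leaving out 1 library). Fits leaving out 1 library tested 18213 to 18846 genes, and no filter 32114, against 14979. Each fit leaving out 1 library also kept 1 library in a group. Its calls mix the changed filter with the library left out, so they do not check stability. Contrasts within 1 genotype and without CGRP were added after seeing the data. Leaving out WT CGRP replicate 2 left a WT CGRP library with 0 counts of *Fas*, so those fits give no usable fold in the CGRP comparisons.

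No pairing by replicate number was visible: over 28 pairs of groups, deviations of same-numbered libraries correlated at -0.0641 to 0.039. Noise between libraries could hide a shared animal or culture, so this does not settle it. The replicate block changed no other call of a receptor. The order of the 9 receptors per length was the same with the longest transcript and with CPM on total counts. All reversals were of values that were not called. For *Tnfrsf1b*, IL-33 against IL-7 turned to 0.0040 with a minimum of 10 counts and 0.61 in *Pac1-/-* libraries, NMU against IL-33 to -0.0038 with a minimum of 10 counts, CGRP against IL-33 and NMU to 0.17 and 0.16 in WT libraries, and the genotype by NMU interaction to -0.043 with RLE size factors, -0.044 with DESeq2, -0.034 with no filter and -0.069 with a minimum of 10 counts. IL-33 against IL-7 turned to -0.076 for *Tnfrsf4* in WT, and in *Pac1-/-* libraries to -0.11 for *Tnfrsf18*, -0.49 for *Tnfrsf26* and -0.24 for *Fas*. *Fas* turned to 0.059 against IL-33 and 0.59 against NMU with CGRP in *Pac1-/-* libraries, and to -0.45 for KO against WT without the CGRP libraries. *Tnfrsf25* with NMU against IL-33 turned to 0.015 with the replicate block, 0.0014 with the compared libraries only and 0.12 in *Pac1-/-* libraries. *Tnfrsf18* for KO against WT with NMU turned to -0.0089 with RLE size factors, -0.0089 with DESeq2 and -0.0077 with a minimum of 10 counts. The cause was not tested.

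Leaving out 1 library reversed these uncalled log2 differences, with the following ranges. In IL-33 against IL-7, *Tnfrsf1b* ran from -0.34 to 0.23, *Tnfrsf4* ran from -1.06 to 0.69, *Tnfrsf18* ran from -0.086 to 0.27, *Tnfrsf26* ran from -0.19 to 1.14, *Fas* ran from -0.39 to 0.63. In NMU against IL-33, *Tnfrsf1b* ran from -0.21 to 0.35, *Tnfrsf9* ran from -0.60 to 0.097, *Tnfrsf25* ran from -0.20 to 0.27. In CGRP against NMU, *Tnfrsf26* ran from -4.74 to 0.12. In KO against WT over all treatments, *Tnfrsf18* ran from -0.15 to 0.029, *Tnfrsf25* ran from -0.18 to 0.072. In KO against WT with IL-7, *Tnfrsf1b* ran from -0.67 to 0.18, *Tnfrsf25* ran from -0.59 to 0.27, *Fas* ran from -1.23 to 0.54. In KO against WT with IL-33, *Tnfrsf9* ran from -0.995 to 0.40, *Tnfrsf18* ran from -0.69 to 0.029, *Tnfrsf25* ran from -0.67 to 0.28, *Tnfrsf26* ran from -0.19 to 0.61. In KO against WT with CGRP, *Tnfrsf1b* ran from -1.10 to 0.28, *Tnfrsf18* ran from -0.38 to 0.092, *Tnfrsf25* ran from -0.25 to 0.30. In KO against WT with NMU, *Tnfrsf4* ran from -0.39 to 0.14, *Tnfrsf18* ran from -0.065 to 0.061, *Tnfrsf25* ran from -0.16 to 0.48, *Tnfrsf26* ran from -2.54 to 0.89. In the genotype by IL-33 interaction, *Tnfrsf4* ran from -1.92 to 1.92, *Tnfrsf9* ran from -1.11 to 0.28, *Tnfrsf25* ran from -0.47 to 0.48, *Fas* ran from -1.53 to 0.50. In the genotype by CGRP interaction, *Tnfrsf9* ran from -1.29 to 0.10, *Tnfrsf18* ran from -0.21 to 0.50, *Tnfrsf25* ran from -0.25 to 0.70. In the genotype by NMU interaction, *Tnfrsf1b* ran from -0.65 to 0.46, *Tnfrsf9* ran from -1.02 to 0.37, *Tnfrsf25* ran from -0.15 to 0.81, *Tnfrsf26* ran from -2.70 to 0.74, *Fas* ran from -0.41 to 1.15.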
